A study of Mus musculus with 31 samples.

Results

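Brain endothelial genes are described here: 9 genes whose transcripts mark the cells that line the vessels of the brain. They were chosen by name, and their probes were found through the RefSeq accessions printed on the array. They are the junction genes Cldn5, Cdh5 and Pecam1, the receptors Flt1, Kdr, Tek and Cd93, and the transporters Slco1a4 and Abcb1a. All 9 were measured, by 10 probes, out of 17897 named genes tested.

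The study compared repeated cross-fostering (RCF) with control rearing in 2 inbred mouse strains, DBA2/J (DBA) and C57BL/6J (C57), and in 2 brain regions, the nucleus accumbens (NAc) and the medial prefrontal cortex (mPFC). In RCF, pups were handed to a different lactating female on every day between postnatal days 1 and 4, so that each litter had 4 adoptive mothers, and they stayed with the last. Control litters were lifted out and given back to their own dam over the same days. All mice were labelled female, without a transgene, weaned on postnatal day 28, with no more than 2 taken from a cage or litter, and 12 weeks old, although another label field gives 9 weeks as the lower end of the age. The RNA came from whole tissue of the region, with all its cell types, so fewer endothelial cells and less RNA per cell cannot be told apart. The 27 samples compared were 4 DBA NAc RCF, 4 DBA NAc control, 4 C57 NAc RCF, 2 C57 NAc control, 3 DBA mPFC RCF, 3 DBA mPFC control, 4 C57 mPFC RCF and 3 C57 mPFC control samples.

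Endothelial cells of the brain form the blood-brain barrier. Tight and adherens junctions seal the space between neighbouring cells, efflux pumps and carriers in the membrane decide what crosses them, and signals such as VEGF, angiopoietin and Wnt, released by surrounding cells, act on endothelial receptors to shape and maintain the vessels. Pericytes and the end feet of astrocytes lie against the same vessels.

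Several samples did not match their labels. The scanner files and the deposited matrix of values disagreed on which array belonged to which sample. Each of the 31 arrays was assigned through the matrix column with which it correlated best, and this moved 29 of them. That correlation was 0.999994 or more, against 0.998 or less with any other column. In 4 pairs of arrays of 1 group the arrays differed by 0.805 to 1.19 times the noise of repeated spots on an array, under the limit of 1.5 times, whereas the other pairs differed by 2.23 to 6.52 times, and each of the 4 pairs was counted as 1 sample. In 6 of the 27 samples the strain, region or sex markers went against the label: DBA NAc control replicate 4, DBA mPFC control replicate 1, C57 NAc RCF replicate 1, C57 NAc control replicates 1 and 3 (averaged), C57 mPFC RCF replicate 1 and C57 mPFC control replicate 3. In DBA mPFC control replicate 1 the level of Xist, which only cells with an inactive X chromosome transcribe, was −5.87, against −0.28 or more in the other 26 samples. Each difference of a gene's brightest probe was also fitted without these 6 samples. Each strain and region had a slide of its own with both treatments on it, so slide cannot be told apart from strain or region. On the C57 NAc, C57 mPFC and DBA mPFC slides, control arrays lay in columns 1 and 2 and RCF arrays in columns 3 and 4. Treatment cannot be told apart from column there. On the DBA NAc slide only control replicate 4 (column 4) and RCF replicate 3 (column 2) departed from that layout.

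The value of a gene is its level: the log2 spot signal minus the upper quartile of the log2 signals on that array. A level therefore compares samples for 1 probe, and is not comparable between genes. On each of the 31 arrays all 10 probes passed the scanner software's test against background, and none was saturated. A further 30 genes of brain endothelium were measured too, and the mean of their levels lay between 0.20 and 0.78 in all 27 samples.

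Promoters are shown for members whose levels followed the rest of the group within conditions (Abcb1a, Slco1a4 and Cldn5), as described further on. They are also shown for 2 that did not, Tek and, by its brighter probe only, Kdr. The stretch is the 120 bases before the start used in a table of RefSeq promoters on GRCm38.p6, given 5′ to 3′ along the gene's strand. Capitals mark GGAA or its complement TTCC, the core that ETS factors bind. The stretches are chr5:8566971-8567090 (Abcb1a, plus strand), chr6:141856221-141856340 (Slco1a4, minus strand), chr16:18776727-18776846 (Cldn5, plus strand), chr4:94739169-94739288 (Tek, plus strand) and chr5:75978456-75978575 (Kdr, minus strand). For Slco1a4, Tek and Kdr the annotated gene reaches further upstream than that start, so that part or all of the stretch lies within the gene.
Abcb1a: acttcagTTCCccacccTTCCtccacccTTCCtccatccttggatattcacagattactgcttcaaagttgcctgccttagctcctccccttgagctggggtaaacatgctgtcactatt
Slco1a4: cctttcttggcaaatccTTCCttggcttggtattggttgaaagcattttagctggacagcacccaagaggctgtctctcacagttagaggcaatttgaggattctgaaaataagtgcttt
Cldn5: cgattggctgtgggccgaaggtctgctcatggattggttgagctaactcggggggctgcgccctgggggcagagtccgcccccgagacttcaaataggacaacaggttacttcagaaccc
Tek: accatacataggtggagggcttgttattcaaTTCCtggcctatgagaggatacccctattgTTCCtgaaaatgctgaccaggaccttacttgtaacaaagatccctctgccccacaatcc
Kdr: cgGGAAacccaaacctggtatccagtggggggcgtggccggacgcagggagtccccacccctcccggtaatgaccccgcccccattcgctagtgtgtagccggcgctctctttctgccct

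The RefSeq table held a 300-base window for 6 of the 9 members. In it, the letters GGAA occurred on either strand 5 times for Abcb1a, Slco1a4 and Kdr, 4 times for Flt1, 2 times for Tek and not at all for Cldn5. Of 32851 mouse promoter windows of the same length, 96.0% held at least 1 on either strand, with a median of 3. The letters AGATAA, sought on both strands, occurred 1 time in the Tek window, and 11.2% of windows held at least 1. These are matches of letters and not sites.

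No member passed the test for RCF in any of the 4 pairs of groups, whereas between strains and between regions several did. A member was called where limma's moderated test gave a Benjamini-Hochberg adjusted p under 0.05 over all 30165 features. For RCF against control, 0 of 9 members were called in DBA NAc, where 0% of all features were, 0 in C57 NAc (0.593%), 0 in DBA mPFC (0%) and 0 in C57 mPFC (0%). For DBA against C57, 0 members were called in NAc RCF samples (15.8% of features), 1 in NAc control samples (17.2%), 4 in mPFC RCF samples (35%) and 2 in mPFC control samples (24.4%). For NAc against mPFC, 2 were called in DBA RCF samples (39%), 1 in DBA control samples (38.3%), 2 in C57 RCF samples (7.69%) and 0 in C57 control samples (0.0995%). At an unadjusted p under 0.05, limma gave 1 member for DBA against C57 in NAc RCF samples (28.5% of features) and 0 for NAc against mPFC in C57 control samples (11.8%). Apart from C57 RCF samples between regions, where 2 of 9 stands against 7.69%, the members' counts were near or below the share of all features. Without the 6 samples whose markers go against their label, DBA against C57 gave 1 member (Cldn5) in NAc RCF samples (16.5% of features), 0 in NAc control samples (7.53%), 4 in mPFC RCF samples (34.6%) and 2 in mPFC control samples (19%). NAc against mPFC then gave 2 in DBA RCF samples (44.4%), 0 in DBA control samples (37.1%) and 1 (Cdh5) in C57 RCF samples (21.9%).

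**Figure D1:**
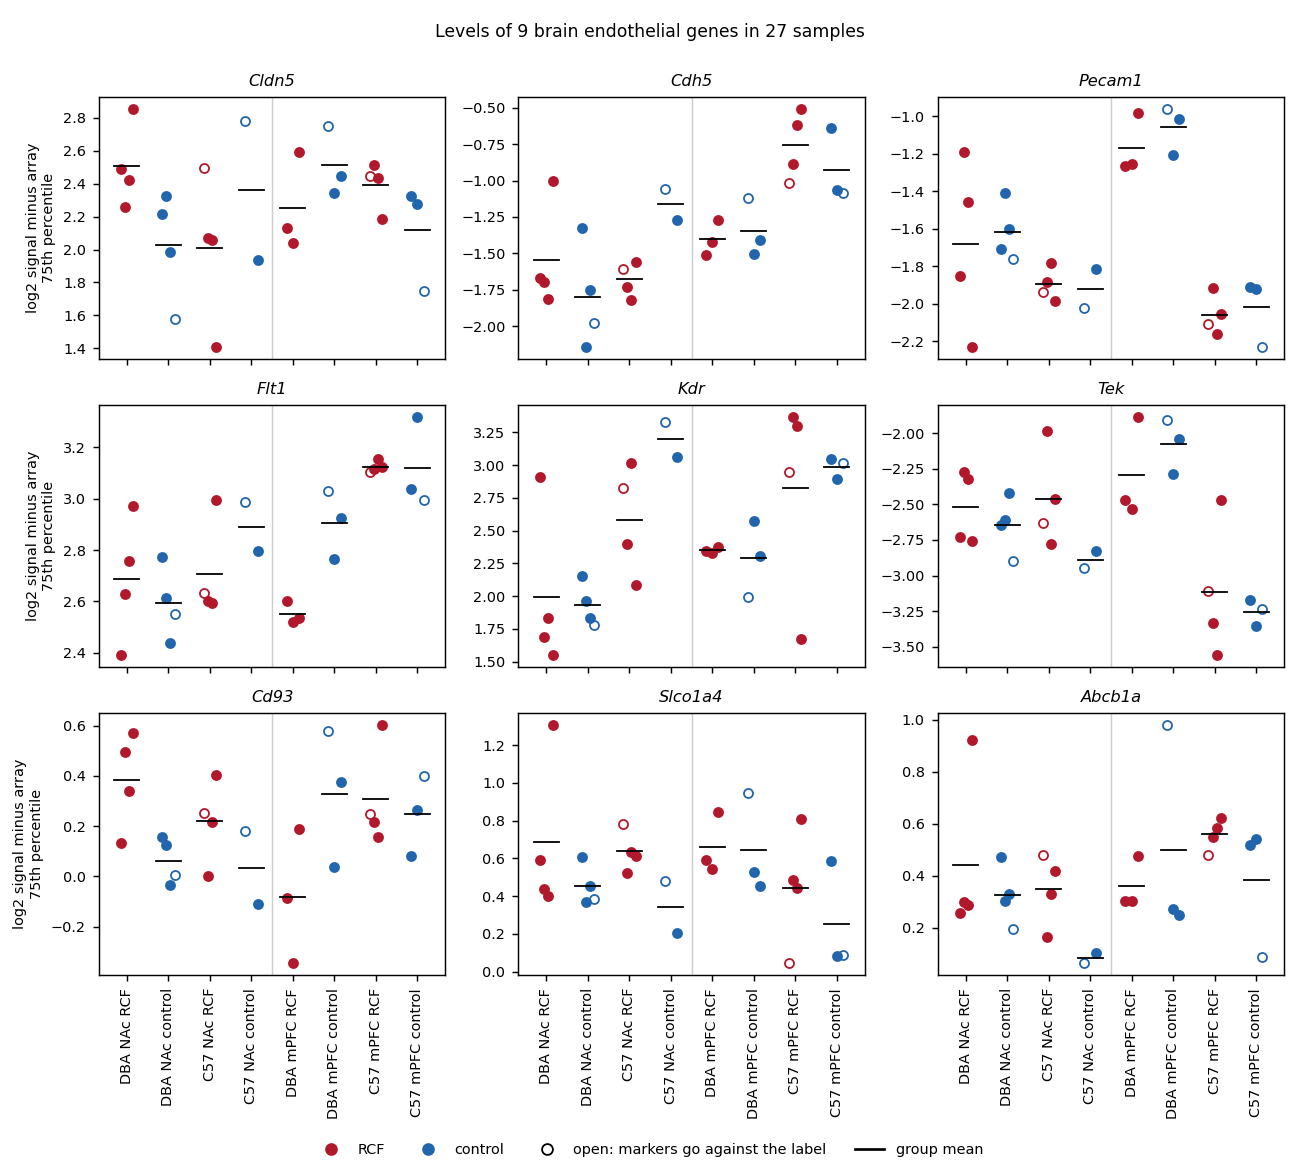
Level (log2 signal minus the upper quartile of the array) of the 9 genes in each of 27 samples, by group; points are samples, open points are the 6 samples whose markers go against their label, and bars are group means. Pecam1 and Tek sit higher in the DBA mPFC groups than in the C57 mPFC groups, and Kdr sits lower in most DBA samples than in most C57 samples.

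The junction gene that differed most between strains was Pecam1 (CD31), an adhesion molecule at endothelial cell borders that platelets and leukocytes carry too. In mPFC RCF samples its level was −1.27, −1.25 and −0.98 in DBA mice, against −2.11, −1.92, −2.16 and −2.05 in C57 mice. In mPFC control samples it was −0.96, −1.21 and −1.01 in DBA mice, against −1.91, −1.92 and −2.23 in C57 mice. Every DBA sample lay above every C57 sample in both. Groups without overlap, in either direction, were found for 4 of 9 members and 45% of all features in mPFC RCF samples, and for 5 of 9 members and 44.3% of features in mPFC control samples. Pecam1 was higher in DBA mice by 0.89 ± 0.17 (SE) in RCF samples (1.85-fold, adjusted p = 0.000552) and by 0.96 ± 0.19 in control samples (1.94-fold, adjusted p = 0.000998). Without the 6 samples whose markers go against their label the differences were 0.87 (adjusted p = 0.00315) and 0.80 (adjusted p = 0.0292).

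In the NAc the strains were closer. Pecam1 stood at −1.85, −1.19, −1.46 and −2.23 in DBA RCF samples, against −1.93, −1.88, −1.78 and −1.98 in C57 RCF samples, and these overlapped (difference 0.21 ± 0.16, adjusted p = 0.425). In control samples it stood at −1.71, −1.41, −1.60 and −1.76 in DBA mice, against −2.02 and −1.81 in C57 mice, without overlap (0.30 ± 0.20, adjusted p = 0.298). Ordered by group mean, the 2 DBA mPFC groups came first (−1.17 ± 0.16 in RCF and −1.06 ± 0.13 in control samples, SD, n = 3 each), then the 2 DBA NAc groups (−1.68 ± 0.45 in RCF and −1.62 ± 0.16 in control samples, n = 4 each), then the 4 C57 groups, between −1.90 and −2.06. RCF and control of the same strain and region were neighbours in that order and did not differ beyond their spread.

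Within DBA mice Pecam1 was lower in NAc than in mPFC, by 0.51 ± 0.17 in RCF samples (adjusted p = 0.0235) and by 0.56 ± 0.17 in control samples (adjusted p = 0.0148). The RCF call was lost without DBA mPFC RCF replicate 4 (−0.42, adjusted p = 0.109), DBA NAc RCF replicate 1 (−0.46, 0.0629) or DBA NAc RCF replicate 4 (−0.33, 0.0902), after normexp background correction (−0.39, 0.0765), with array weights (−0.315, 0.0573) and with only the groups compared in the fit (adjusted p = 0.121). The control call was lost after normexp correction (−0.40, 0.0699) and without the 6 samples (−0.46, 0.116), DBA mPFC control replicate 1 (−0.51, 0.0529) or replicate 3 (−0.54, 0.0509). The same DBA mPFC samples enter the strain and the region comparison, so the 2 results are not separate evidence. The mPFC control sample whose strain markers read C57, replicate 1, lay on the DBA slide, and its Pecam1 level of −0.96 was the highest of all 27 samples.

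Cdh5, the VE-cadherin of endothelial adherens junctions, went the other way in the mPFC. Its level in mPFC RCF samples was −1.51, −1.42 and −1.27 in DBA mice, against −1.02, −0.89, −0.62 and −0.51 in C57 mice, without overlap. It was lower in DBA mice by 0.64 ± 0.20 (1.56-fold, adjusted p = 0.0143), and by 0.73 (adjusted p = 0.0154) without the 6 samples; without DBA mPFC RCF replicates 1 and 3, counted as 1 sample, the adjusted p was 0.0583. In mPFC control samples it was −1.12, −1.51 and −1.41 in DBA mice, against −0.64, −1.07 and −1.08 in C57 mice, again without overlap, at a difference of −0.41 ± 0.21 (adjusted p = 0.157). NAc control samples had −1.33, −2.14, −1.75 and −1.98 in DBA mice, against −1.06 and −1.27 in C57 mice (−0.64 ± 0.22, adjusted p = 0.051). NAc RCF samples showed no such order (0.13 ± 0.18, adjusted p = 0.686).

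Between regions, Cdh5 was called in C57 RCF samples. Its level there was −1.61, −1.73, −1.82 and −1.56 in NAc, against −1.02, −0.89, −0.62 and −0.51 in mPFC. All 4 NAc samples lay below all 4 mPFC samples; 3 of 9 members and 12% of features had groups without overlap here. It was lower in NAc by 0.92 ± 0.18 (1.89-fold, adjusted p = 0.00487) and by 1.03 (adjusted p = 0.00258) without the 6 samples, which include replicate 1 of both groups. In DBA RCF samples the difference was −0.14 ± 0.20 (adjusted p = 0.584), in DBA control samples −0.46 ± 0.20 (0.0691) and in C57 control samples −0.23 ± 0.23 (0.758).

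Cldn5, the main claudin of barrier tight junctions, passed no test. Its group means lay between 2.01 in C57 NAc RCF and 2.51 in DBA mPFC control samples, with SDs of 0.15 to 0.60, so that no neighbours in the order differed beyond their spread. In NAc RCF samples it was 2.49, 2.26, 2.42 and 2.86 in DBA mice, against 2.50, 2.07, 2.06 and 1.41 in C57 mice. The difference of 0.50 ± 0.22 (adjusted p = 0.131) became 0.66 (adjusted p = 0.0149) without the 6 samples, of which C57 NAc RCF replicate 1, the highest C57 sample, enters here.

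Tek (Tie2), the receptor for angiopoietins, differed in the same direction as Pecam1. Its level in mPFC control samples was −1.91, −2.29 and −2.04 in DBA mice, against −3.17, −3.36 and −3.23 in C57 mice, without overlap. In mPFC RCF samples it was −2.47, −2.53 and −1.89 in DBA mice, against −3.11, −3.33, −3.56 and −2.47 in C57 mice, where replicate 4 of the C57 mice reached the DBA range. Tek was higher in DBA mice by 1.18 ± 0.24 in control samples (2.26-fold, adjusted p = 0.00165) and by 0.82 ± 0.23 in RCF samples (1.77-fold, adjusted p = 0.00801). Without the 6 samples the values were 1.10 (adjusted p = 0.0256) and 0.82 (adjusted p = 0.0241). In RCF samples the call was lost without DBA mPFC RCF replicate 4 (0.61, adjusted p = 0.0727), with only the groups compared in the fit (adjusted p = 0.0567) and after a normexp background correction (0.34, adjusted p = 0.103).

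In the NAc, Tek did not separate the strains: the difference was −0.06 ± 0.21 in RCF samples (adjusted p = 0.903) and 0.25 ± 0.26 in control samples (0.53). Across the 4 strain and region combinations the order of Tek was the reverse in the 2 strains, with NAc below mPFC in DBA mice (−0.22 ± 0.23 in RCF and −0.56 ± 0.23 in control samples) and above it in C57 mice (0.65 ± 0.21 and 0.37 ± 0.27). None of these 4 region differences was called on its own (adjusted p = 0.454, 0.0542, 0.0595 and 0.657). The C57 RCF difference was called without C57 mPFC RCF replicate 4 (0.87, adjusted p = 0.00883) or C57 NAc RCF replicate 1 (0.71, 0.0492), and the DBA control difference without DBA NAc control replicate 3 (−0.64, 0.0486). Of 13 other settings, 4 called the C57 RCF difference, among them array weights (1.04) and the deposited matrix of values (0.745, adjusted p = 0.033). The DBA control difference was called under 3 of 13, among them only the groups compared in the fit (−0.56, adjusted p = 0.0266).

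For Pecam1 and Tek the strain difference had lower values in NAc than in mPFC, and the test of that change passed the threshold. The strain by region term, the DBA minus C57 difference in NAc minus that in mPFC averaged over RCF and control, was called for 2 of 9 members, against 31.4% of all features. It was −0.67 ± 0.18 for Pecam1 (adjusted p = 0.00757) and −0.90 ± 0.24 for Tek (adjusted p = 0.00605). Both calls held with each of the 27 samples left out in turn, but neither held without the 6 samples whose markers go against their label (−0.62, adjusted p = 0.072, and −0.88, adjusted p = 0.0549, with 18.8% of features called) or after normexp correction (−0.43, 0.0776, and −0.39, 0.0798). The other 7 members had terms between −0.34 (Kdr) and 0.28 (Cdh5), none called. As slide changes with strain and region, this term too cannot be told apart from slide.

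**Figure D2:**
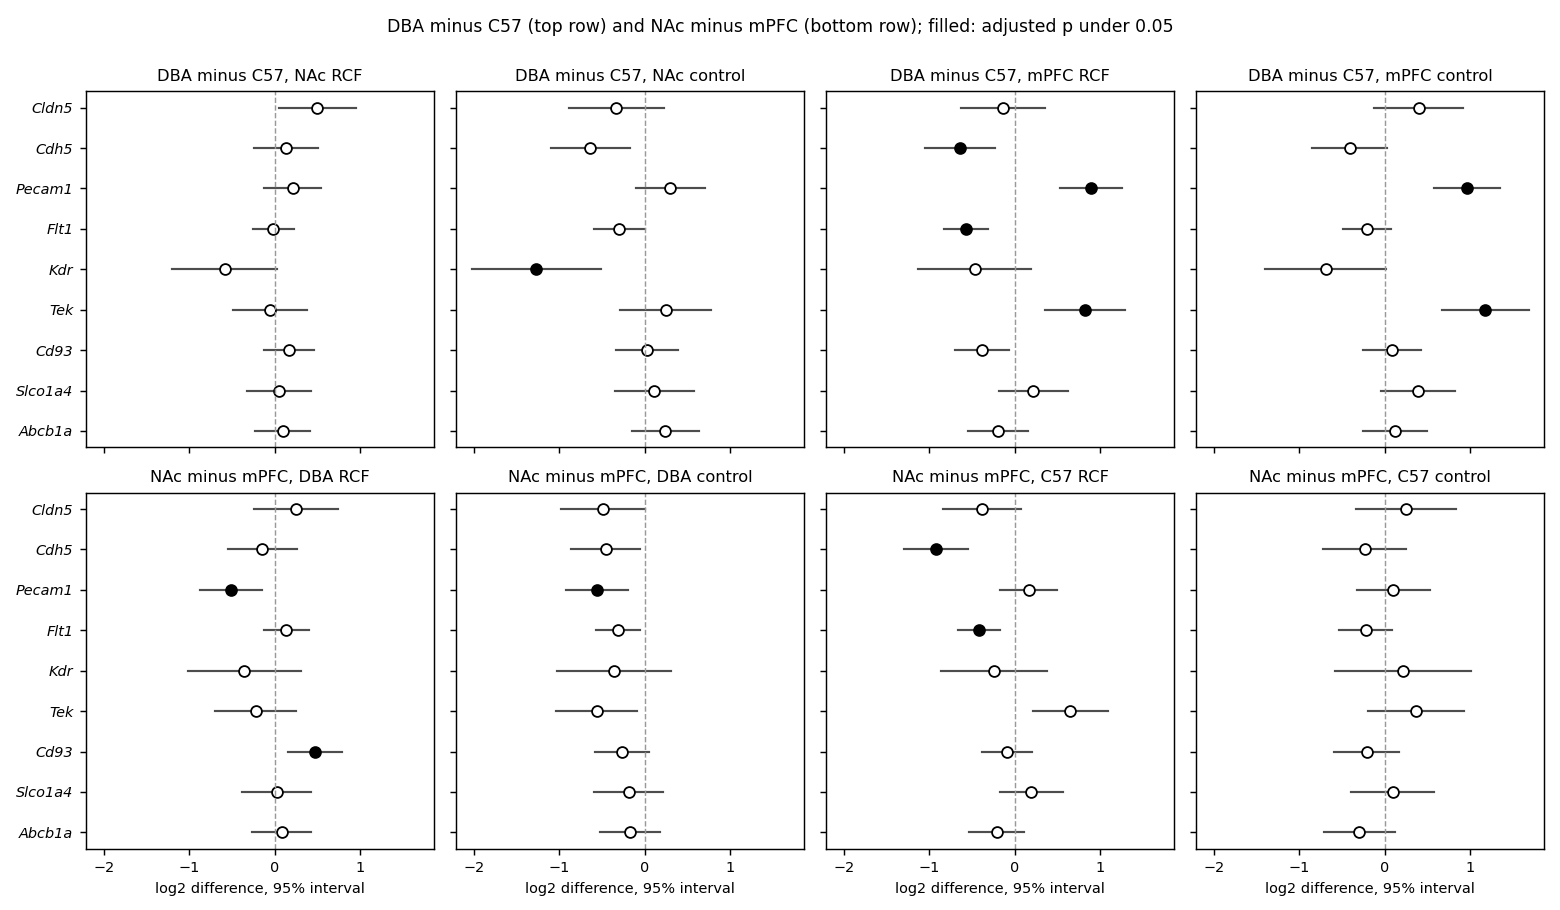
Log2 differences of the 9 genes between strains (top row, DBA minus C57) and between regions (bottom row, NAc minus mPFC), with 95% intervals; filled points have an adjusted p under 0.05. Pecam1 and Tek lie to the right in both mPFC strain panels, at 0.82 to 1.18, while Cdh5 and Flt1 lie to the left in the RCF one, and Cdh5 lies furthest to the left in the C57 RCF region panel, at −0.92.

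Flt1 (VEGFR1), which binds VEGF and limits how much of it reaches Kdr, was lower in DBA mPFC RCF samples. It stood at 2.60, 2.52 and 2.54 in DBA mice, against 3.103, 3.11, 3.15 and 3.12 in C57 mice, without overlap. The difference was −0.57 ± 0.13 (1.49-fold, adjusted p = 0.00146), and −0.58 without the 6 samples (adjusted p = 0.00533). In mPFC control samples it stood at 3.03, 2.77 and 2.92 in DBA mice, against 3.04, 3.32 and 3.00 in C57 mice, which overlapped (−0.21 ± 0.13, adjusted p = 0.271). In NAc control samples it stood at 2.77, 2.62, 2.44 and 2.55 in DBA mice, against 2.99 and 2.79 in C57 mice, without overlap. The difference of −0.30 ± 0.14 (adjusted p = 0.153) was called under 1 alternative, with every array as its own sample (−0.296, adjusted p = 0.0407). In NAc RCF samples the strains did not separate (−0.02 ± 0.12, adjusted p = 0.946).

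Flt1 was also lower in NAc than in mPFC of C57 RCF mice. Its NAc levels were 2.63, 2.60, 2.59 and 2.99, all below the 4 mPFC levels given above, and the difference was −0.42 ± 0.12 (1.34-fold, adjusted p = 0.0306). This call did not survive leaving out C57 mPFC RCF replicate 2 (adjusted p = 0.0664) or 3 (0.0939), C57 NAc RCF replicate 2 (0.0931) or 3 (0.0889), or the 6 samples (−0.40, 0.054), nor quantile normalization (−0.27, 0.157). It was also lost after normexp correction, with only the groups compared in the fit and with the deposited matrix of values. In DBA mice the difference was 0.14 ± 0.13 in RCF samples (adjusted p = 0.408) and −0.31 ± 0.13 in control samples (0.0534).

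Kdr (VEGFR2), the main signalling receptor for VEGF on endothelium, had lower values in DBA than in C57 mice in all 4 comparisons, and 1 of them was called. In NAc control samples its level was 2.15, 1.96, 1.83 and 1.78 in DBA mice, against 3.33 and 3.06 in C57 mice, without overlap, as for 5 of 9 members and 36.5% of features. The difference of −1.27 ± 0.36 (2.41-fold, adjusted p = 0.0201) rested on 2 C57 samples, and without replicates 1 and 3, the averaged C57 sample whose region markers go against its label, it was −1.13 (adjusted p = 0.231). In the same comparison all 10 striatal markers had higher values in DBA mice (median difference 1.499) and all 8 cortical markers lower ones (−2.44), none of them called. Their part in the Kdr difference was not tested. In mPFC control samples Kdr was 1.99, 2.57 and 2.30 in DBA mice, against 3.05, 2.90 and 3.01 in C57 mice, also without overlap (−0.69 ± 0.34, adjusted p = 0.148).

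In both strain comparisons of RCF samples 1 sample lay away from the rest of its group by value. The check for a sample far from the other 3 of its group, given further on, flagged neither. Both were picked by their Kdr level, so the fits without them are descriptions and not separate evidence. NAc RCF samples had 2.91, 1.69, 1.83 and 1.55 in DBA mice, against 2.83, 2.40, 3.02 and 2.08 in C57 mice, and only DBA replicate 1 lay within the C57 range. The difference was −0.58 ± 0.30 (adjusted p = 0.201), and −0.89 ± 0.28 (adjusted p = 0.0366) without that sample. In mPFC RCF samples the levels were 2.35, 2.33 and 2.38 in DBA mice, against 2.95, 3.37, 3.30 and 1.68 in C57 mice, where replicate 4 lay below all the others. Here the difference was −0.47 ± 0.32 (adjusted p = 0.263), and −0.85 ± 0.26 (adjusted p = 0.0162) without C57 mPFC RCF replicate 4.

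A second probe for Kdr, printed in 10 spots and with the same RefSeq accession, matched the brighter probe only in part. In each strain comparison it too had lower values in DBA mice: −0.03 (NAc RCF), −0.31 (NAc control), −0.60 (mPFC RCF) and −0.31 (mPFC control). Adjusted p-values of this second probe come from a separate limma fit over all 43417 probes kept. Its levels in mPFC RCF samples were −1.11, −1.27 and −0.94 in DBA mice, against −0.55, −0.45, −0.46 and −0.58 in C57 mice, without overlap, and here it was lower in DBA mice by 0.60 ± 0.13 (adjusted p = 0.00137). Between the strains in NAc control samples, where the brighter probe was called, it gave −0.31 ± 0.15 (adjusted p = 0.156). It was higher in NAc than in mPFC of DBA RCF mice by 0.61 ± 0.13 (adjusted p = 0.00106), where the brighter probe gave −0.35 ± 0.32 (adjusted p = 0.398). Across the 27 samples both probes correlated at r = 0.21, and at −0.13 after each group's mean was removed. DBA NAc RCF replicate 1, the highest of its group by the brighter probe, was the lowest by the second (−0.668, against −0.473 to −0.375). The value for Kdr thus depended on the probe.

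Cd93, a transmembrane lectin-like receptor of endothelium involved in adhesion between cells and matrix, was called between regions of DBA RCF mice. Its level was 0.13, 0.50, 0.34 and 0.57 in NAc, against −0.09, −0.35 and 0.19 in mPFC, which overlapped at a single pair of samples. It was higher in NAc by 0.47 ± 0.15 (1.38-fold, adjusted p = 0.0197), with the same value without the 6 samples, none of which is in these groups. Without DBA mPFC RCF replicate 2 the difference was 0.34 (adjusted p = 0.136), without replicates 1 and 3 it was 0.47 (0.0539) and without DBA NAc RCF replicate 4 it was 0.40 (0.0535). The call was also lost after normexp correction (0.38, adjusted p = 0.0591) and with only the groups compared in the fit (0.0523). In DBA control mice the value ran the other way, −0.27 ± 0.15 (adjusted p = 0.173). Between strains in mPFC RCF samples Cd93 stood just outside the threshold at −0.39 ± 0.15 (adjusted p = 0.0524).

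The transporters Slco1a4 (Oatp1a4), a carrier of organic anions, and Abcb1a (P-glycoprotein), the efflux pump that keeps many drugs out of the brain, were called in none of the comparisons. Group means of Slco1a4 lay between 0.25 in C57 mPFC control and 0.69 in DBA NAc RCF samples, with SDs of 0.11 to 0.42. Those of Abcb1a lay between 0.08 in C57 NAc control and 0.56 in C57 mPFC RCF samples, with SDs of 0.03 to 0.42. Their spread came largely from single samples: Slco1a4 was 1.31 in DBA NAc RCF replicate 4, against 0.40 to 0.59 in the other 3 of that group, and Abcb1a was 0.92 there, against 0.26 to 0.30. Abcb1a was 0.98 in DBA mPFC control replicate 1, the sample with C57 strain markers and an Xist level of −5.87, against 0.27 and 0.25 in the other DBA mPFC control samples.

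Between RCF and control, which the study set out to compare, no member passed the test. In limma's test, of the 9 members 2 had an unadjusted p under 0.05 in DBA NAc (2.01% of all features), 1 in C57 NAc (11.1%), 2 in DBA mPFC (1.55%) and 0 in C57 mPFC (2.47%). By value 8 of 9 members were higher in RCF samples of DBA NAc (52.6% of all features), 5 in C57 NAc (50.8%), 2 in DBA mPFC (47.9%) and 7 in C57 mPFC (48%). The median difference of the members was 0.12, 0.02, −0.14 and 0.14 in the same order, against 0.01, 0.01, −0.01 and −0.01 for all features. Groups without overlap were found for 0 members in DBA NAc (0.872% of features), 5 in C57 NAc (17.7%), 1 in DBA mPFC (10.9%) and 0 in C57 mPFC (3.15%).

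In DBA NAc the members with an unadjusted p under 0.05 were Cldn5 and Cd93. Cldn5 was 2.49, 2.26, 2.42 and 2.86 in RCF samples, against 2.22, 2.33, 1.99 and 1.58 in control samples, and replicate 4 held both the highest RCF and the lowest control value. The difference was 0.48 ± 0.22 (95% interval 0.03 to 0.93, adjusted p = 1), and 0.33 (adjusted p = 1) without DBA NAc control replicate 4 and the other samples in doubt. Cd93 was 0.13, 0.50, 0.34 and 0.57 in RCF samples, against 0.15, 0.12, −0.03 and 0.00 in control samples (0.32 ± 0.14, adjusted p = 1). Both pairs of groups overlapped.

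In DBA mPFC the members with an unadjusted p under 0.05 were lower in RCF samples. Flt1 was 2.60, 2.52 and 2.54 in RCF samples, against 3.03, 2.77 and 2.92 in control samples, without overlap. The difference was −0.36 ± 0.13 (95% interval −0.63 to −0.08, adjusted p = 1). Cd93 was −0.09, −0.35 and 0.19 in RCF samples, against 0.58, 0.04 and 0.37 in control samples, which overlapped (−0.41 ± 0.16, adjusted p = 1). The highest control value of both genes came from DBA mPFC control replicate 1, and without the 6 samples the differences were −0.29 for each (adjusted p = 1 for both). The second Kdr probe was also lower in RCF samples there, by 0.45 ± 0.14 (adjusted p = 1), and its groups did not overlap, at −1.11, −1.27 and −0.94 in RCF samples, against −0.56, −0.76 and −0.67 in control samples.

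The change of the RCF difference with region in DBA mice (NAc minus mPFC) was above 0 for all 9 members, from 0.00 for Kdr to 0.74 for Cldn5, with a median of 0.31 against 0.01 for all features, of which 52.9% were above 0. Its unadjusted p was under 0.05 for Cd93 (0.73 ± 0.22), Flt1 (0.45 ± 0.18) and Cldn5 (0.74 ± 0.33), against 1.08% of all features, and its adjusted p was 1 for each. No member and 0% of features were called. Without the 6 samples the median was 0.14, and Pecam1 (−0.05) and Abcb1a (−0.03) were below 0. Markers of other cells differed by value too: of 11 pericyte markers 10 had higher values in RCF samples of DBA NAc and 10 lower ones in DBA mPFC, and of 10 meningeal and fibroblast markers all 10 had higher and 9 lower values. In DBA mPFC all 10 striatal markers and 8 of 9 oligodendrocyte markers had lower values in RCF samples, and in DBA NAc all 8 cortical markers had higher ones. None of these markers was called, and their part in the members' values was not tested.

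In C57 NAc the only member with an unadjusted p under 0.05 was Cdh5, at −1.61, −1.73, −1.82 and −1.56 in RCF samples, against −1.06 and −1.27 in control samples. These did not overlap, in a comparison of 4 samples with 2. The difference was −0.51 ± 0.22 (95% interval −0.97 to −0.05, adjusted p = 0.378), and −0.43 (adjusted p = 1) without the 6 samples, which leaves 1 control sample. In the same comparison all 10 striatal markers had higher and all 8 cortical markers lower values in RCF samples, and their part in it was not tested. The strain by treatment terms in NAc for Cdh5 (0.77 ± 0.29, adjusted p = 0.508) and Cldn5 (0.83 ± 0.35, adjusted p = 0.577) were not called. No member and 0% of features were called for strain by treatment in NAc or in mPFC, or for region by treatment in C57 mice. At an unadjusted p under 0.05, limma gave 2 members (7.66% of features), 1 member (1.47%) and 1 member (4.55%) for these 3 terms. In C57 mPFC the differences lay between −0.16 (Kdr) and 0.28 (Cldn5).

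How large a difference these samples leave room for differed by gene. For Pecam1 the 95% intervals of RCF minus control ran from −0.40 to 0.27 in DBA NAc, −0.39 to 0.43 in C57 NAc, −0.49 to 0.28 in DBA mPFC and −0.40 to 0.32 in C57 mPFC. For Kdr they reached from −1.37 to 0.14 in C57 NAc. When each scanner file was instead taken as the sample it is listed with, 1 member (Kdr) was called for RCF in DBA NAc, 4 (Pecam1, Tek, Cdh5 and Flt1) in C57 NAc and 3 (Pecam1, Tek and Flt1) in C57 mPFC, among them Pecam1 at 0.99 ± 0.15 and 0.79 ± 0.16 in C57 NAc and C57 mPFC. In that reading 16 arrays went against their strain label by their markers, against 2 in the assignment used here. Against their region label went 15 arrays in that reading and 5 in the assignment used here.

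**Figure D3:**
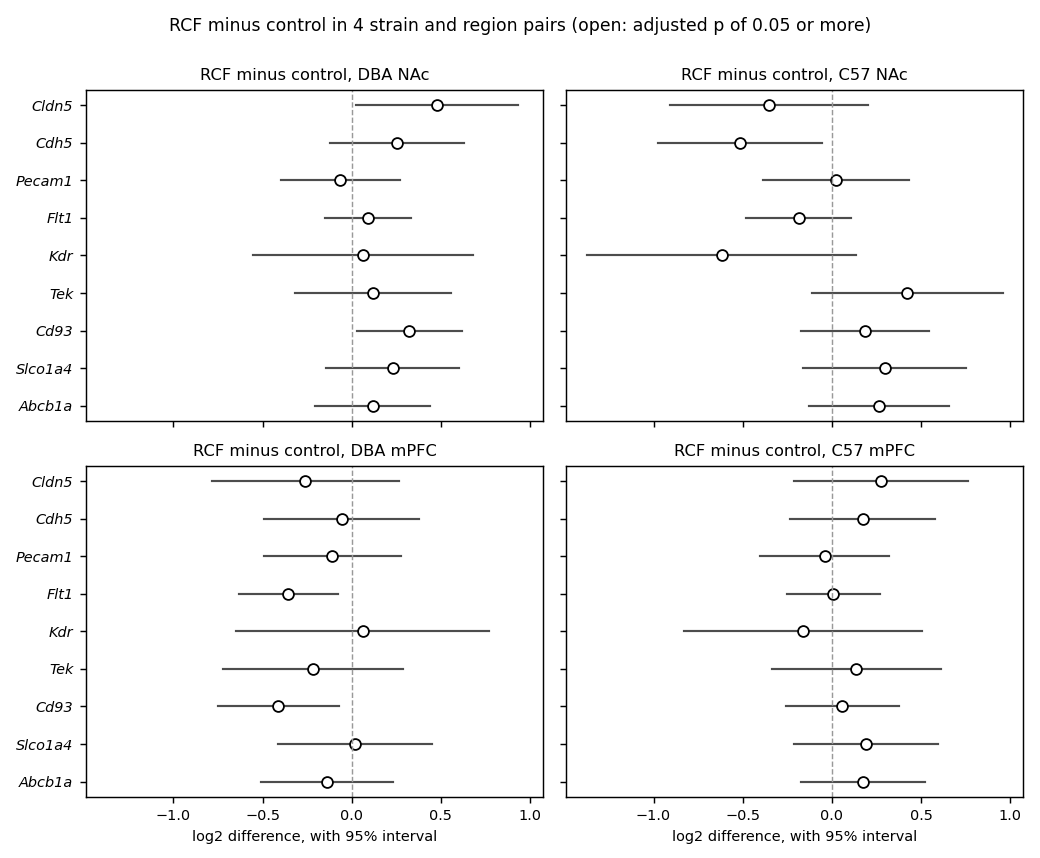
Log2 differences of the 9 genes, RCF minus control, in the 4 combinations of strain and region, with 95% intervals; open points have an adjusted p of 0.05 or more. All 36 points are open, and Cldn5 and Cd93 lie right of 0 in DBA NAc while Flt1 and Cd93 lie left of 0 in DBA mPFC.

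Among 30 other genes of brain endothelium the strain and region differences were mixed in direction, and none was called for RCF. In mPFC RCF samples 3 were called higher and 5 lower in DBA than in C57 mice, among them Bsg, a membrane glycoprotein of barrier vessels (1.31 ± 0.15), Eng, a TGF-beta co-receptor (0.71 ± 0.16), Lsr, a protein of tricellular junctions (−0.90 ± 0.17), and Robo4, an endothelial guidance receptor (−0.72 ± 0.14). In mPFC control samples 4 were higher and 1 lower, with Bsg at 0.91 ± 0.16, Eng at 0.60 ± 0.17, the sialomucin Emcn at 0.71 ± 0.19 and Lsr at −0.52 ± 0.18. The share of all features called was 35% in mPFC RCF and 24.4% in mPFC control samples. Bsg and Eng were thus higher in DBA mice in both, as Pecam1 and Tek were, and Lsr was lower. In NAc RCF samples 1 of the 30 was called higher and 1 lower in DBA mice (15.8% of features). In NAc control samples 2 were called higher and 3 lower (17.2%). There Nos3, the endothelial nitric oxide synthase, was higher in DBA mice in RCF (0.61 ± 0.13) and control samples (0.57 ± 0.16). For these 30 genes the median difference of DBA minus C57 was −0.18 in mPFC RCF and 0.04 in mPFC control samples, against 0.08 for all features in each.

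Between regions, 4 of the 30 were higher and 4 lower in NAc of DBA RCF mice, among them the phosphatase Ptprb (VE-PTP), a partner of Tek (0.83 ± 0.18), and Egfl7, a secreted endothelial protein (−0.44 ± 0.16). In DBA control mice 0 were higher and 6 lower, with Eng at −0.59 ± 0.16, the thyroid hormone carrier Slco1c1 at −0.42 ± 0.11 and Egfl7 at −0.53 ± 0.16. In C57 RCF mice 1 was higher, Bsg (0.56 ± 0.14), and 4 lower, among them Egfl7 (−0.81 ± 0.15), the glucose transporter Slc2a1 (−0.51 ± 0.13) and Lsr (−0.53 ± 0.15). The share of all features called between regions was 39% in DBA RCF, 38.3% in DBA control and 7.69% in C57 RCF mice. In DBA control mice all 9 members also had lower values in NAc, between −0.56 and −0.17, with a median of −0.36 against −0.13 for all features, although only Pecam1 was called.

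Of 15 genes of VEGF, angiopoietin and Notch signalling, 3 were called higher and 1 lower in DBA mPFC RCF samples than in C57 ones (35% of all features called). The higher ones were the VEGF family ligands Vegfa (0.55 ± 0.17), Vegfb (0.42 ± 0.16) and Pgf (0.76 ± 0.25), and the lower one was Notch1 (−0.92 ± 0.30), while their receptor Flt1 was lower. In mPFC control samples (24.4% of features called) Vegfa (0.50 ± 0.18) and the Notch ligand Dll4 (1.02 ± 0.25) were higher and Notch1 (−0.98 ± 0.32) lower. Between regions of DBA mice, 1 was called higher and 2 lower in NAc in RCF samples (39% of features). In control samples 0 were higher and 4 lower (38.3%). Angpt1, the ligand that activates Tek, was lower in NAc in RCF (−0.96 ± 0.29) and control samples (−1.14 ± 0.29), and Vegfc, a ligand of Kdr and of the lymphatic VEGF receptor, was lower too (−1.14 ± 0.32 and −1.37 ± 0.32).

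Of 9 genes of Wnt signalling to brain endothelium, 1 was called higher and 3 lower in DBA than in C57 mPFC RCF samples (35% of all features called). The co-receptor Lrp6 had a difference of −1.499 ± 0.21 there and of −1.05 ± 0.22 in mPFC control samples. Between regions, 4 of the 9 were called higher and 2 lower in NAc of DBA RCF mice (39% of features). In DBA control mice 2 were higher and 2 lower (38.3%), and in C57 RCF mice 2 were higher and 0 lower (7.69%). Fzd4, the endothelial receptor for norrin and Wnt, was higher in NAc than in mPFC in DBA RCF (0.52 ± 0.14), DBA control (0.56 ± 0.14) and C57 RCF mice (0.62 ± 0.13). An array probe can also read a sequence difference between strains as a difference in level, and this was not tested.

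Other cell types differed between the groups as well. Between strains 35% of all features were called in mPFC RCF samples and 24.4% in mPFC control samples. In mPFC RCF samples all 9 oligodendrocyte markers had lower values in DBA than in C57 mice, 3 of them called, and their mean level ran from 1.10 to 1.86 in DBA mice, against 1.96 to 2.98 in C57 mice. Of 10 striatal markers 9 had lower values there and of 8 cortical markers all 8 higher ones. Pericyte markers, the closest neighbours of endothelium, were called 2 of 11 times, Pdgfrb (−0.68 ± 0.21) and Ndufa4l2 (−0.48 ± 0.17), both lower in DBA mice, as Flt1 and Cdh5 were. Markers of macrophages and leukocytes, cells that carry Pecam1 too, were at a mean level of −3.06 to −1.96 in DBA mPFC RCF samples, against −3.17 to −2.78 in C57 mPFC RCF samples, with 1 of 7 called, higher in DBA mice. Among mPFC control samples, where Pecam1 and Tek were called, all 8 astrocyte markers had lower values in DBA mice, 1 of them called, 9 of 10 striatal markers lower ones and all 8 cortical markers higher ones. The part of these markers in the members' differences was not tested.

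Within groups, the members did not vary as 1 block. After each group's mean was removed, Cdh5 and Slco1a4 correlated at r = 0.85, Slco1a4 and Abcb1a at 0.76 and Cdh5 and Abcb1a at 0.71 over 27 samples. Leaving out DBA NAc RCF replicate 4, the sample high in all 3 genes (Cdh5 at −1.001), lowered these to 0.78, 0.63 and 0.57. Pecam1 and Tek correlated with each other (0.44), and Kdr ran against Tek (−0.63) and Cd93 (−0.55). The values for Pecam1 with Cdh5 (−0.41) and for Kdr with Flt1 (−0.44) were −0.06 without DBA NAc RCF replicate 4 and −0.23 without DBA NAc RCF replicate 1. The correlation of Kdr and Tek was −0.40 without C57 mPFC RCF replicate 4, the sample with the lowest Kdr and the highest Tek level of its group. These values are descriptions: the samples share arrays, slides and the scaling of each array.

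**Figure D4:**
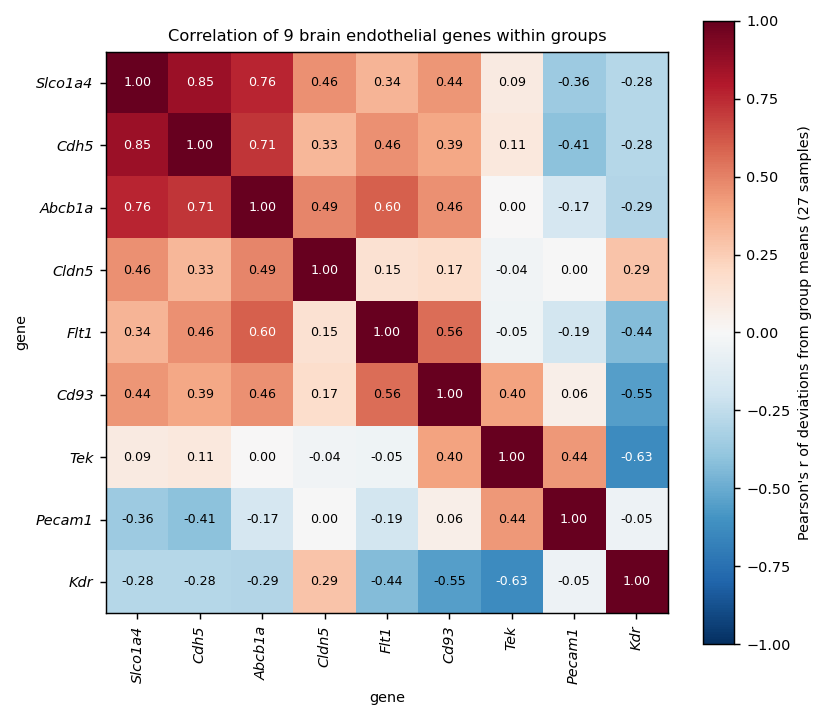
Pearson's r between the 9 genes over 27 samples, after each group's mean was removed; red is positive and blue negative. Slco1a4, Cdh5 and Abcb1a form the reddest block (0.71 to 0.85), and the row of Kdr is blue apart from Cldn5.

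With the mean of the other 8 members, the within-group correlation was 0.64 for Abcb1a, 0.62 for Cldn5, 0.58 for Slco1a4, 0.52 for Cdh5, 0.37 for Cd93 and 0.25 for Flt1. It was −0.08 for Tek, −0.14 for Pecam1 and −0.43 for the brighter Kdr probe, while the second Kdr probe had 0.47. The genes with the most similar course to the mean of all 9 members, out of 17897, were Vtn (0.89), a matrix protein made by brain pericytes, Gjb2 (0.84), a connexin, Anpep (0.84), an aminopeptidase of pericytes, Atf5 (0.83), a stress-related transcription factor, and Sphk1 (0.83), which makes sphingosine 1-phosphate. Without the 6 samples these were 0.86, 0.86, 0.81, 0.59 and 0.67.

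The mean of 11 pericyte markers correlated with the members at 0.88 within groups, that of 30 other endothelial genes at 0.87, that of 8 astrocyte markers at 0.80 and that of 10 meningeal and fibroblast markers at 0.63. Oligodendrocyte markers had −0.16 and choroid plexus markers 0.09, and without DBA mPFC control replicate 1 these were −0.55 and −0.26. With each sample left out in turn the pericyte value stayed between 0.85 and 0.90 and the endothelial value between 0.85 and 0.89. DBA NAc RCF replicate 4, high in Cldn5, Slco1a4, Abcb1a and Cdh5, also had the highest mean of its group for pericyte markers (0.07, against −0.44 to −0.32 in the other 3) and for meningeal markers (0.65, against −1.70 to −0.35). Its Kdr, Pecam1 and Tek levels were the lowest of the 4.

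**Figure D5:**
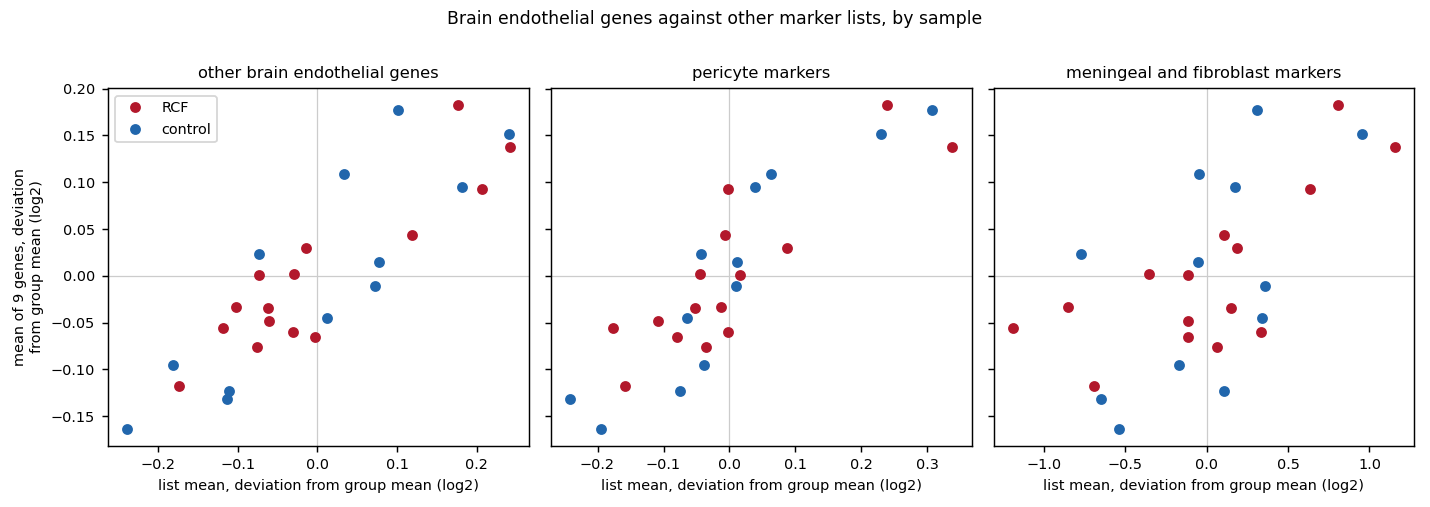
Mean of the 9 genes (vertical) against the mean of 3 marker lists (horizontal) in 27 samples, each as a log2 deviation from its group mean; red points are RCF and blue points control samples. The points run along a line for the other endothelial genes and the pericyte markers (r = 0.87 and 0.88) and more loosely for the meningeal and fibroblast markers (0.63).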

How the data were processed

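Total RNA from each region was hybridised to Agilent mouse arrays in 1 colour (Cy3). Per the file headers, spot intensities were extracted and background-subtracted with Agilent Feature Extraction 10.7.3.1; the submitters' processing notes also name limma. The series matrix holds log2 values deposited by the authors, and it was used to assign arrays to samples and as an alternative. Levels were log2 processed intensity minus each array's upper quartile. Probes well above background on 3 arrays of a group or more were kept (43417 of 55681), with the brightest probe of a gene standing for it, giving 30165 features. Genes were named through RefSeq accessions. Between 58.6% and 81.9% of probes per array were well above background; the number of arrays limits the precision. Array pairs closer than 1.5 times the noise of repeated spots were averaged.

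One limma 3.58.1 model (R 4.3.3) of 8 group means over 27 samples gave 12 differences and 5 interactions, with moderated tests and Benjamini-Hochberg adjustment over all features. Nothing says that the samples came from separate mice, so p-values measure the spread between these samples, which may be technical. Normexp correction used the median spot signal, as the mean signal was not used here. The fit was tested on simulated data. Members, gene lists and the rule for named genes (every member, called list genes among the 4 lowest p of their list, and the 5 genes most like the members' mean) were chosen with earlier results of these data known.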

Additional observations from a re-analysis of the deposited data

Results flagged for a closer look

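Of 40 checks of a gene in a group of 4 samples, 2 found a sample far from the other 3; chance gives about 1 in 20. Abcb1a was 0.924 in DBA NAc RCF replicate 4, against 0.256 to 0.30 in the others of its group. Flt1 was 2.993 in C57 NAc RCF replicate 4, against 2.594 to 2.633 in the others.

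The strain difference changed with region for Pecam1, with a term of −0.668, and for Tek, with a term of −0.904. Slide cannot be told apart from strain and region here.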

How the results depend on the processing

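With scanner files as listed, for RCF 1 member was called in DBA NAc, 4 in C57 NAc and 3 in C57 mPFC; for DBA against C57, 1 in NAc RCF, 0 in mPFC RCF and 0 in mPFC control samples; for NAc against mPFC, 0 in DBA RCF, DBA control and C57 RCF samples; 2 for strain by treatment in NAc and 0 for strain by region. The medians for RCF were then −0.136 in C57 NAc, 0.002 in DBA mPFC and −0.047 in C57 mPFC. Those of DBA minus C57 were −0.161 in NAc RCF, −0.155 in NAc control and −0.070 in mPFC control samples. Those of NAc minus mPFC were −0.023 in DBA control, 0.050 in C57 RCF and −0.053 in C57 control samples, and the terms were 0.009 and 0.030 for strain by treatment in NAc and mPFC and 0.019 for region by treatment in DBA mice. Signs turned, as listed, for Cd93 in RCF minus control of DBA mPFC (0.163), Cldn5 in DBA minus C57 of NAc RCF (−0.161), Kdr of NAc control (0.048), and Pecam1 (−0.350), Tek (−0.245) and Cd93 (0.206) of mPFC RCF samples. They also turned for Cd93 (−0.007), Flt1 (0.083) and Cdh5 (0.006) in NAc minus mPFC of DBA RCF, DBA control and C57 RCF samples in that order, Cd93 in strain by treatment in mPFC (0.340), and Flt1 (−0.006) and Cd93 (−0.132) in region by treatment in DBA mice. The cause was not tested.

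Without the 6 samples whose markers go against their label, 1 member was called for DBA against C57 in NAc RCF and 0 in NAc control samples, 0 and 1 for NAc against mPFC in DBA control and C57 RCF samples, and 0 for strain by region. The medians were 0.239 (DBA minus C57, NAc control), −0.237 and −0.284 (NAc minus mPFC, DBA control and C57 control), −0.015 and −0.124 (strain by treatment, NAc and mPFC), 0.139 (region by treatment, DBA) and 0.342 (strain by region); fewer samples were fitted. A region marker score as covariate gave 1 member in DBA against C57 of NAc RCF and a median of −0.336 in mPFC RCF samples. For DBA against C57 in NAc control samples 2 members were called with no filter, with the strict filter, with array weights and with the replicate number as a block, and 3 with every array as a sample. Array weights called 7 and 5 in mPFC RCF and control samples, 1, 5 and 5 for NAc against mPFC in DBA RCF, DBA control and C57 RCF samples, and gave a strain by region median of 0.215. Normexp called 0, 0 and 1 in those 3 and 0 for strain by region, fitting only the groups compared 0, 2 and 1, every array 4 in DBA control and quantile normalization 1 in C57 RCF samples. Replicate numbers did not pair the samples throughout. In RCF minus control of C57 NAc, samples sharing a number had correlated deviations from their group means (r = 0.72 and 0.39). In DBA minus C57 of NAc control samples these were 0.1145 and 0.1028. Both comparisons use the 2 C57 NAc control samples, whose deviations from their group mean are equal and opposite. The 2 values of each comparison are therefore not separate. In C57 NAc, RCF replicate 1 and control replicates 1 and 3 both had region markers against their label. In no other comparison did every shared number give more than 0.1. The replicate block called 3 members for NAc against mPFC in DBA control samples.

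With 1 sample left out, members called ranged from 0 to 1 (DBA against C57, NAc RCF), 0 to 2 (NAc control), 0 to 2 (NAc against mPFC, DBA RCF), 0 to 3 (DBA control) and 1 to 3 (C57 RCF). Medians ranged from −0.046 to 0.156 (DBA minus C57, NAc RCF), −0.118 to 0.174 (NAc control), −0.042 to 0.245 (mPFC control), −0.146 to 0.119 (NAc minus mPFC, DBA RCF), −0.180 to 0.154 (C57 control), −0.063 to 0.085 (region by treatment, C57), −0.257 to 0.165 (strain by region), 0.017 to 0.284 (strain by treatment, NAc) and −0.430 to −0.114 (mPFC, where −0.374 was the lowest with an unaveraged sample left out). For RCF 0 members were called in each. Of the 14 called differences, 9 kept their call without the 6 samples, 7 after normexp and 0 with scanner files as listed, where 5 turned sign.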
